A study of Homo sapiens with 7 samples.

Results

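The 9 genes described here take up glucose, handle its phosphorylation, set the membrane potential, load zinc into insulin granules or mark maturity in the pancreatic β-cell. They are SLC2A1, SLC2A2, G6PC2, HADH, ABCC8, ATP1B2, SLC30A8, GLP1R and UCN3, chosen by name and mapped to their Ensembl gene IDs, and they are 9 of the 66025 genes in the deposited table. The study asked how METTL14, which with METTL3 forms the core of the methyltransferase that places N6-methyladenosine (m6A) on messenger RNA, bears on β-cell differentiation. Total RNA was sequenced from β-like cells made from H1, an established human embryonic stem cell line, in 7 libraries of 3 groups. The iKD2 Dox+ group (libraries a, b and c) carried a doxycycline-inducible METTL14 shRNA and was given doxycycline (Dox), the iKD2 Dox- group (b and c) was the same line without Dox, and the iSCR Dox+ group (a and b) carried a non-targeting shRNA and was given Dox. All 3 groups carried a lentiviral shRNA cassette, so none was unmodified H1, and iKD2 was 1 transduced line. Per the study's methods the cells were sorted at the last stage of differentiation with DA-ZP1, a dye that binds zinc. The study calls the libraries independent biological samples, while the labels do not say whether those of a group came from separate differentiations.

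A β-cell senses glucose by metabolising it. Sugar enters through a facilitative transporter, it is phosphorylated, the ATP made from it closes the KATP channel, and the depolarised cell releases granules in which insulin is packed with zinc. In human β-cells the low-Km transporter GLUT1 (SLC2A1) carries much of the glucose, whereas rodent β-cells depend on GLUT2 (SLC2A2). UCN3, a peptide of the corticotropin-releasing family, and G6PC2 appear late in β-cell maturation.

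Depth and labels set the limits on what follows. Estimated counts summed to between 14875429 and 20639156 per library. The a libraries had the fewest genes detected, 20252 in iKD2 Dox+ a and 19652 in iSCR Dox+ a. The other libraries had 21256 to 23747. Levels are given as CPM, the counts of a gene per 1000000 counts of its library, scaled by the trimmed mean of M-values (TMM). METTL14 itself held 18.6, 16.3 and 48.9 CPM in the a, b and c libraries of iKD2 Dox+, 39.3 and 22.5 CPM in those of iKD2 Dox- (b, c) and 36.0 and 32.0 CPM in those of iSCR Dox+ (a, b). The highest METTL14 level of the 7 was thus in the library labelled iKD2 Dox+ c, and the groups overlapped (log2 fold change -0.14, SE 0.63, against iKD2 Dox-, and -0.28, SE 0.63, against iSCR Dox+). Genes that mark other cell types were also detected. Ductal markers summed to 1199 to 1255 CPM in iKD2 Dox+ against 541.6 to 700.7 CPM in iKD2 Dox- and 675.2 to 770.5 CPM in iSCR Dox+, with all 7 listed genes higher in both comparisons, none called. Mesenchymal markers summed to 1464 to 2151, 1027 to 1061 and 1343 to 1633 CPM, with 6 of 7 higher in both. The exception was VIM, at -0.41 (SE 0.23) against iKD2 Dox- and -0.52 (SE 0.23) against iSCR Dox+. Of the 7 only SPARC, a matrix protein, was called. It rose against iKD2 Dox-, by 1.95 on the log2 scale (SE 0.24, adjusted p = 0.000922 by edgeR), and was called there in 15 of 16 alternatives. Against iSCR Dox+ its value was 1.21 (SE 0.24, adjusted p = 0.116 by edgeR), called in 4 of 16 alternatives. In iKD2 Dox- against iSCR Dox+ it was -0.75 (SE 0.25), and 0 of 7 mesenchymal markers were higher there. Alpha-cell markers summed to 6449 to 11390, 10890 to 15160 and 11680 to 13090 CPM, while the acinar markers CELA3A, PNLIP and AMY2A were at 0 in every library. Of 11 β-cell markers 4 were higher against iKD2 Dox- (median log2 fold change -0.32) and 6 against iSCR Dox+ (median 0.22). This list is not separate from the members, since it includes ABCC8, SLC30A8 and G6PC2. Their values were 0.07, -0.55 and 0.06 against iKD2 Dox- and 0.26, 0.25 and 2.29 against iSCR Dox+. The other markers higher against iSCR Dox+ were IAPP, PCSK1 and MNX1. Those lower there were INS, CHGA, PDX1, NKX6-1 and ISL1. INS, CHGA and PDX1 lay below all 4 controls in the iKD2 Dox+ libraries, as did 2.82% of all genes tested. CHGA was -0.43 against iKD2 Dox- and -0.31 against iSCR Dox+, and PDX1 was -0.60 and -0.85. Of the 11 markers INS was the 1 called, and it fell by 0.85 on the log2 scale (SE 0.10, adjusted p = 0.000471) against iSCR Dox+. Its value was -0.39 against iKD2 Dox- (adjusted p = 0.451) and -0.45 between the controls (adjusted p = 0.614). The part of these markers in the results below was not tested, and in bulk libraries fewer cells of a type cannot be told apart from less RNA per cell.

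METTL14 acts with METTL3 at the consensus DRACH, of which GGACT is a common form. HADH and ATP1B2 were the only members whose 3 iKD2 Dox+ libraries lay below all 4 controls, as did 2.82% of all genes tested. For ATP1B2 this depended on the scaling. Sites of the GGACT form in the GENCODE 29 principal transcripts of both (build GRCh38, plus strand) are shown with 12 bases on each side, GGACT in capitals. The HADH site lay in exon 7, in the coding sequence, at chr4:108033250-108033278. Of the 5 ATP1B2 sites, 1 lay in the 5′ untranslated region, 1 in the coding sequence and 3 in the 3′ untranslated region. Those shown are the coding site in exon 4, at chr17:7654185-7654213, and the first of the 3′ untranslated region, in exon 7, at chr17:7656578-7656606.
HADH coding site: ctagattatgtcGGACTggatactacgaa
ATP1B2 coding site: ctccggcattggGGACTccacccactatg
ATP1B2 first 3′ untranslated site: ctgggaaatgagGGACTggaagtgaggcc
HADH held 1 GGACT in 1912 bases (0.523 per kb) and ATP1B2 held 5 in 3153 bases (1.59 per kb), which placed them above 22.3% and 81.4% of the tested protein-coding genes. ABCC8 held 2, SLC2A1 2, SLC30A8 3, GLP1R 3, G6PC2 2, SLC2A2 4 and UCN3 none. On the transcript strand 91.4% of 15326 tested protein-coding transcripts held at least 1 GGACT (median 0.939 per kb), and a match of letters is not a methylated site.

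Per kilobase of exon the 9 genes ran over more than 3 orders of magnitude. The mean over the 7 libraries, per kb of the union of annotated exons, was 134 CPM for SLC2A1, 66.5 for SLC30A8, 32.7 for ABCC8, 19.4 for GLP1R, 10.8 for ATP1B2, 4.67 for UCN3, 2.57 for HADH, 1.28 for G6PC2 and 0.039 for SLC2A2. SLC2A1 exceeded SLC30A8 in 6 of 7 libraries with ranges that overlapped. SLC30A8 exceeded ABCC8 in 7 of 7 libraries with ranges that did not overlap. ABCC8 also exceeded GLP1R in 7 of 7. Further down the order the neighbours were not separated: UCN3 exceeded HADH in 4 of 7 libraries, and GLP1R exceeded ATP1B2, and HADH exceeded G6PC2, in 5 of 7. With the median transcript length in place of the union of exons the first 3 places stood, but ATP1B2 (61.0 CPM per kb) came before GLP1R (19.4) and HADH (17.5) before UCN3 (4.67). On both scales SLC2A1 had the highest mean of the 9 and SLC2A2 the lowest.

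SLC2A1, the GLUT1 transporter (chr1:42925375-42959176, minus strand), held 908, 612 and 513 CPM in the a, b and c libraries of iKD2 Dox+, 459 and 586 CPM in those of iKD2 Dox- (b, c) and 731 and 609 CPM in those of iSCR Dox+ (a, b). Library iKD2 Dox+ a was the highest and iKD2 Dox- b the lowest, and iKD2 Dox+ overlapped both controls. The log2 fold change was 0.38 (95% interval -0.08 to 0.84) against iKD2 Dox- and 0.02 (-0.44 to 0.47) against iSCR Dox+. The annotated antisense gene SLC2A1-AS1 and 2 short genes on the same strand lie within it, and how reads were shared among them was not tested.

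SLC2A2, the GLUT2 transporter (chr3:170996348-171026750, minus strand), had 15 counts in iKD2 Dox+ b (0.933 CPM) and none in the other 6 libraries. A count of 0 allows up to 3 counts, or 0.146 to 0.203 CPM across the 7 libraries, counting error only. It did not pass the low-count filter, so it had no test, and no difference between groups was detectable at this depth.

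G6PC2 encodes a glucose-6-phosphatase catalytic subunit of islets that reverses glucose phosphorylation (chr2:168901240-168910000, plus strand, with SPC25 on the other strand in the same interval). It held 0, 6.86 and 8.90 CPM in the a, b and c libraries of iKD2 Dox+, 4.67 and 5.41 CPM in those of iKD2 Dox- (b, c) and 0 and 2.13 CPM in those of iSCR Dox+ (a, b). Both libraries without a count were the a libraries, which also had the fewest genes detected, and the part of this in the zeros was not tested. The log2 fold changes were 0.06 (95% interval -5.11 to 5.23) against iKD2 Dox- and 2.29 (-3.38 to 7.96) against iSCR Dox+, intervals that leave the direction undetermined.

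**Figure D1:**
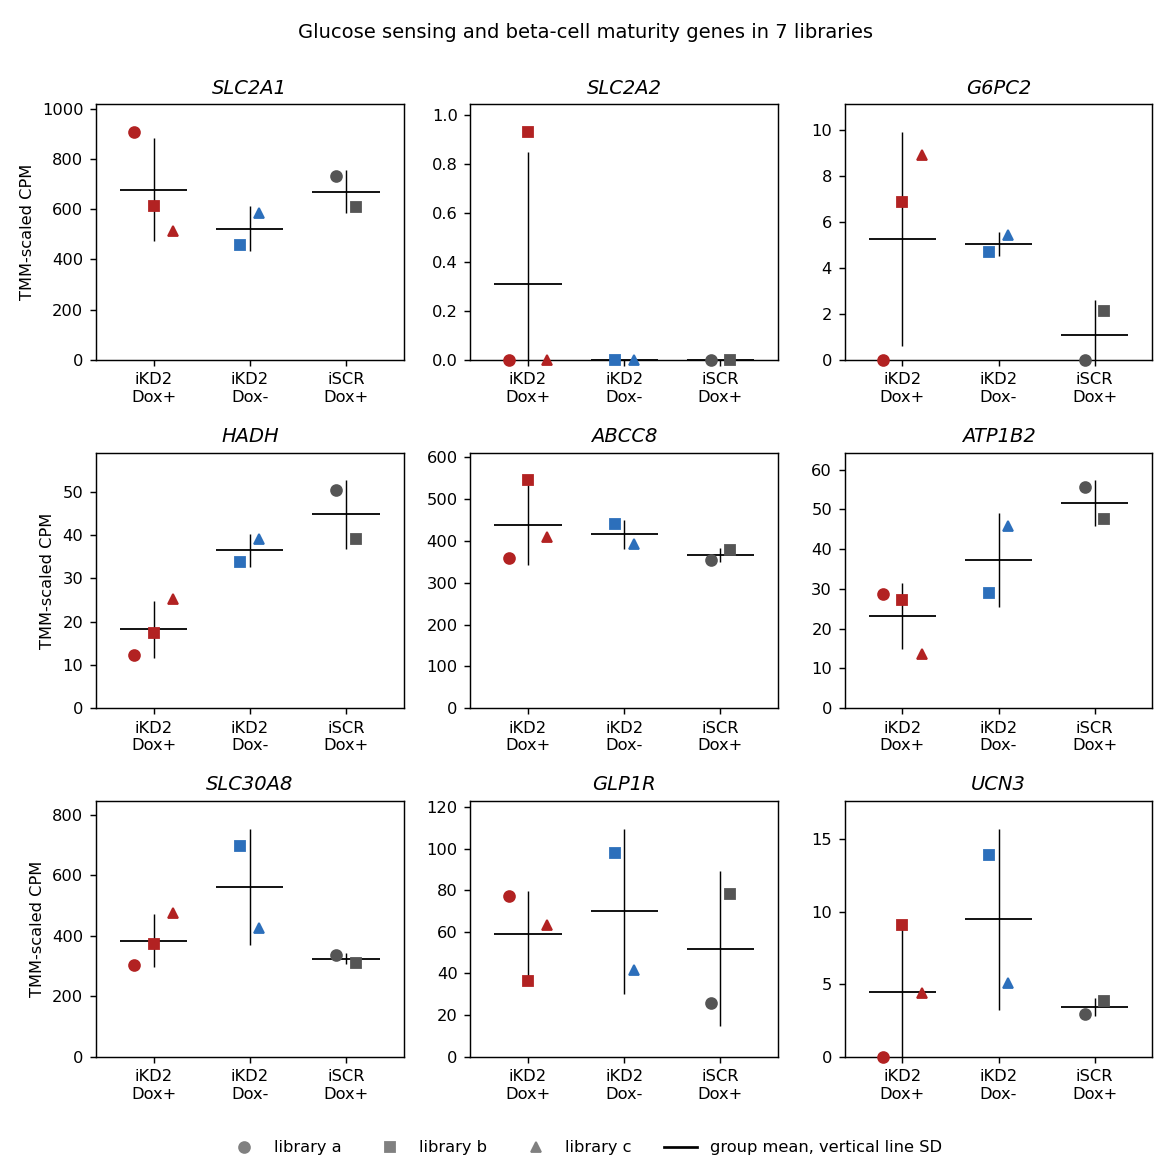
Levels of the 9 members in each library, as TMM-scaled CPM on linear axes that start at 0, by group; marker shape gives the library letter, horizontal lines the group mean and vertical lines the SD (n = 3, 2 and 2). HADH and ATP1B2 were lower in the 3 iKD2 Dox+ libraries than in the 4 controls, as were 2.82% of all genes tested. The gap of ATP1B2 was narrow (28.8 against 29 CPM), and the other members overlapped.

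HADH, the mitochondrial short-chain 3-hydroxyacyl-CoA dehydrogenase whose loss in people causes hyperinsulinism (chr4:107989714-108035175, plus strand), lay apart from the controls under each of the 3 scalings tried. It held 12.2, 17.3 and 25.2 CPM in the a, b and c libraries of iKD2 Dox+, 33.8 and 39.2 CPM in those of iKD2 Dox- (b, c) and 50.4 and 39.2 CPM in those of iSCR Dox+ (a, b). Every iKD2 Dox+ library was below every control, as for 2.82% of all genes tested. In the same order the means were 18.2 ± 6.57 CPM (SD, n = 3), then 36.5 ± 3.86 CPM (SD, n = 2), then 44.8 ± 7.91 CPM (SD, n = 2). Against iKD2 Dox- the fitted difference on the log2 scale was -1.0 (SE 0.57, 95% interval -2.20 to 0.19), and it was -1.30 (SE 0.57, -2.49 to -0.10) against iSCR Dox+, where the fitted level was 2.46-fold lower. Neither passed: the adjusted p was 1 against iKD2 Dox- and 0.699 against iSCR Dox+ by edgeR's quasi-likelihood test. The control groups differed by -0.30 (-1.62 to 1.03).

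ATP1B2, the β2 subunit of the sodium pump (chr17:7646627-7657768, plus strand), held 28.8, 27.2 and 13.6 CPM in the a, b and c libraries of iKD2 Dox+, 29 and 45.7 CPM in those of iKD2 Dox- (b, c) and 55.7 and 47.6 CPM in those of iSCR Dox+ (a, b). Here iKD2 Dox+ c was the lowest library, whereas for HADH it was the highest of its group. The groups did not overlap on this scale, but with median-of-ratios scaling the highest iKD2 Dox+ library (28.9 CPM) passed the lowest control (28.3 CPM), so the separation from iKD2 Dox- depended on the scaling. Means were 23.2 ± 8.34 CPM (SD, n = 3), then 37.3 ± 11.8 CPM (SD, n = 2), then 51.6 ± 5.73 CPM (SD, n = 2). Its log2 fold change was -0.69 (SE 0.55, -1.83 to 0.46) against iKD2 Dox- and -1.15 (SE 0.55, -2.29 to -0.01) against iSCR Dox+, the latter with an adjusted p = 0.699 (edgeR).

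ABCC8, the sulfonylurea receptor SUR1 and regulatory subunit of the KATP channel (chr11:17392498-17476879, minus strand), varied least. It held 359, 545 and 410 CPM in the a, b and c libraries of iKD2 Dox+, 441 and 392 CPM in those of iKD2 Dox- (b, c) and 354 and 378 CPM in those of iSCR Dox+ (a, b). The highest library exceeded the lowest by 1.54-fold, and iKD2 Dox+ overlapped both controls. Its log2 fold changes were 0.07 (95% interval -0.37 to 0.51) against iKD2 Dox- and 0.26 (-0.18 to 0.70) against iSCR Dox+. The first bound limits any fall against iKD2 Dox- to 0.37 on the log2 scale and the second any fall against iSCR Dox+ to 0.18.

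SLC30A8, the ZnT8 transporter that loads zinc into insulin granules (chr8:116950273-117176714, plus strand), had its largest difference between the 2 control groups. It held 303, 372 and 476 CPM in the a, b and c libraries of iKD2 Dox+, 699 and 426 CPM in those of iKD2 Dox- (b, c) and 337 and 310 CPM in those of iSCR Dox+ (a, b). Library iKD2 Dox- b was the highest, and iKD2 Dox+ overlapped both controls. The log2 fold change was -0.55 (SE 0.23, -1.03 to -0.07) against iKD2 Dox- but 0.25 (SE 0.24, -0.24 to 0.73) against iSCR Dox+, and the control groups differed by 0.80 (SE 0.26, 0.26 to 1.33), with adjusted p values of 1, 0.841 and 0.826 (edgeR). Without iKD2 Dox- b the difference between the controls was 0.40, and the value of iKD2 Dox+ relative to iKD2 Dox- was -0.15. Since the sort read a zinc dye, these are levels among cells that passed a gate on zinc.

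GLP1R, the receptor for the incretin GLP-1 (chr6:39048798-39087743, plus strand), held 77.1, 36.3 and 63.4 CPM in the a, b and c libraries of iKD2 Dox+, 98.1 and 41.8 CPM in those of iKD2 Dox- (b, c) and 25.6 and 78.3 CPM in those of iSCR Dox+ (a, b). Within each group the libraries differed by more than the group means did, which were 59.0, 69.9 and 51.9 CPM. The log2 fold changes of -0.25 (-1.28 to 0.79) and 0.18 (-0.86 to 1.23) leave the direction undetermined.

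UCN3 (chr10:5365009-5374692, plus strand) held 0, 9.08 and 4.39 CPM in the a, b and c libraries of iKD2 Dox+, 13.9 and 5.05 CPM in those of iKD2 Dox- (b, c) and 2.97 and 3.86 CPM in those of iSCR Dox+ (a, b). The library without a count, iKD2 Dox+ a, also lacked G6PC2 and MAFA, and it had fewer genes detected than any library but iSCR Dox+ a. The log2 fold changes were -1.08 (-5.21 to 3.06) against iKD2 Dox- and 0.39 (-3.85 to 4.64) against iSCR Dox+.

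**Figure D2:**
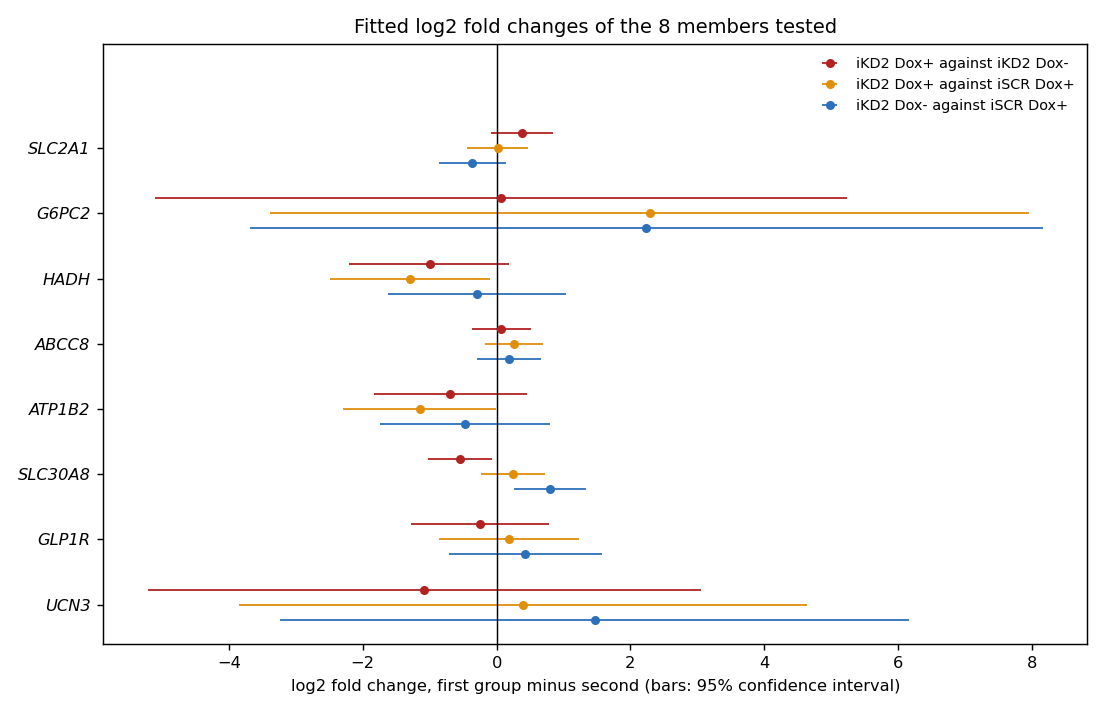
Fitted log2 fold changes of the 8 members that passed the filter (points) with 95% confidence intervals (bars), for the 3 comparisons, 0 marking no difference. HADH (-1.30) and ATP1B2 (-1.15) lay below 0 against iSCR Dox+, SLC30A8 lay below 0 against iKD2 Dox- (-0.55) and above it between the controls (0.80), and the intervals of G6PC2 and UCN3 were the widest.

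Counted together, 8 of the 9 members passed the low-count filter and none was called at an adjusted p under 0.05 by edgeR, DESeq2 or limma in any of the 3 comparisons. At an unadjusted p under 0.05, edgeR gave SLC30A8 (lower) against iKD2 Dox-, HADH and ATP1B2 (both lower) against iSCR Dox+, and SLC30A8 (higher) in iKD2 Dox- against iSCR Dox+. By edgeR the background was low as well: 0.0393%, 0.0262% and 0.0131% of the 22926 genes tested were called in these comparisons. DESeq2 called more genes in each, as given in the last section. The study's criterion, an unadjusted p under 0.05 with over 1.5-fold change, was applied here to edgeR's p values, whereas the study used voom. By it 0 members passed against iKD2 Dox- (background 3.55%) and 2 against iSCR Dox+ (HADH and ATP1B2, background 6.52%). Between the controls 1 passed (SLC30A8, background 4.38%). HADH and ATP1B2, with ABCC8, were genes the study itself displayed from these libraries, so their direction is not independent evidence. HADH and ATP1B2 lay below iKD2 Dox- without overlap, as did 11.6% of all genes tested, below iSCR Dox+, as did 9.23%, and below all 4 control libraries, as did 2.82%. The members' median log2 fold change was -0.40 against iKD2 Dox- (all genes 0.01), 0.21 against iSCR Dox+ (all genes 0.08) and 0.31 between the controls (all genes 0.04). The first 2 comparisons share the iKD2 Dox+ libraries, so their values are not separate evidence.

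Of 105 other genes of the same pathways 100 were tested, and 1 was called. SLC2A3, the high-affinity neuronal-type transporter GLUT3, rose in iKD2 Dox+ against iKD2 Dox-, by 1.63 on the log2 scale (SE 0.27, 3.09-fold, adjusted p = 0.0166). It held 549, 390 and 337 CPM in the a, b and c libraries of iKD2 Dox+. The values were 125 and 150 CPM in iKD2 Dox- (b, c) and 290 and 192 CPM in iSCR Dox+ (a, b). The iKD2 Dox+ libraries thus lay above all 4 controls, as they did for SLC2A10, PFKL and SLC30A6 of the same lists. The share of all genes that lay above all 4 controls was not counted. Against iSCR Dox+ the SLC2A3 difference was 0.82 (SE 0.26, adjusted p = 0.533 by edgeR). For the same gene iKD2 Dox- itself differed from iSCR Dox+ by -0.81 (SE 0.28, adjusted p = 0.826). The call against iKD2 Dox- was lost without iKD2 Dox+ a (adjusted p = 0.168), iKD2 Dox- b (0.22) or iKD2 Dox- c (0.122), with limma (0.0638) and at a mean of at least 5 CPM (0.16), while the log2 fold change stayed between 1.40 and 1.77 over all alternatives. SLC2A14, its near-identical copy, was at 0.135 to 9.27 CPM, and how reads were split between them was not tested. SLC2A3 was highest in library iKD2 Dox+ a, as was SLC2A1.

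In the glucose entry list the medians of the 13 genes tested were -0.11 and 0.04 in the first 2 comparisons. In the glycolysis and mitochondrial coupling list no gene of 29 was called, the medians were -0.11 and -0.30, and 25 of 29 genes had a negative value against iSCR Dox+, as did 10696 of all 22926 genes tested. Between the controls 20 of 29 were negative. HADHA, a subunit of the long-chain enzyme that works beside HADH, had means of 122, 123 and 125 CPM in the 3 groups. PFKFB2, which makes a phosphofructokinase activator, had the lowest p of this list, at 20.9, 42.9 and 50.5 CPM in iKD2 Dox+, 52.1 and 55.3 CPM in iKD2 Dox- and 8.84 and 13.4 CPM in iSCR Dox+. Both iKD2 groups lay above iSCR Dox+. Of 9 genes of a list described as kept low in β-cells (disallowed genes) none was called. All 9 passed the low-count filter, and whether each is low in human β-cells was not tested. LDHA, the best known of them, had means of 146, 152 and 179 CPM, and CD59, with the lowest p, means of 81.0, 78.3 and 111 CPM.

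**Figure D3:**
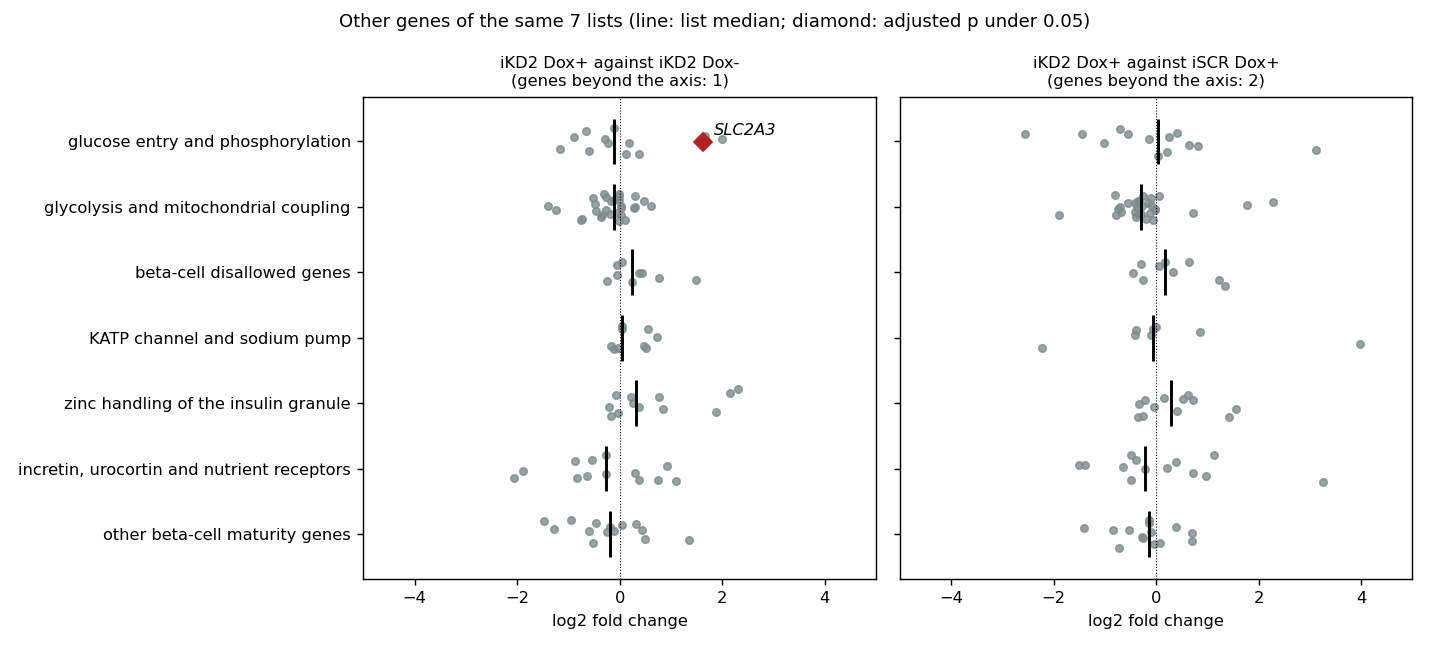
Log2 fold changes of the other genes of the 7 lists in iKD2 Dox+ against iKD2 Dox- (left) and against iSCR Dox+ (right); each point is a gene, black lines are list medians, and a diamond marks an adjusted p under 0.05; genes beyond the axes are counted above each panel. SLC2A3, at 1.63 on the left, was the only gene called, and the list medians ran from -0.30 to 0.31.

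None of 9 KATP channel and sodium pump genes was called. KCNJ11, the pore subunit that pairs with ABCC8, had a mean of 56.4 ± 12.7 CPM (SD, n = 3) in iKD2 Dox+, of 63.3 ± 0.578 CPM (SD, n = 2) in iKD2 Dox- and of 74.7 ± 9.70 CPM (SD, n = 2) in iSCR Dox+. The β1 subunit of the sodium pump, ATP1B1, had means of 184, 129 and 198 CPM. KCNJ8, the vascular-type pore subunit, had 3.64, 7.72 and 3.13 CPM in iKD2 Dox+, 6.80 and 0.163 CPM in iKD2 Dox- and 0 in both iSCR Dox+ libraries. Its iKD2 Dox+ mean (4.83 CPM) was 23.8-fold above 0.203 CPM, the level of the 3 counts a library at 0 allows. That ratio is for the mean and counting error only, and iKD2 Dox- c held as few as 3 counts. The adjusted p against iSCR Dox+ was 0.699 (edgeR). Zinc transporters and metallothioneins held no call among 12 tested, with medians of 0.31 and 0.28, and SLC39A6, a zinc importer, had the lowest p with means of 64.0, 67.2 and 38.9 CPM.

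None of 13 tested receptor and signalling genes was called, with medians of -0.27 and -0.22. GIPR, the other incretin receptor, had means of 33.2, 25.8 and 20.1 CPM, and CASR, the calcium-sensing receptor, had a log2 fold change of -0.84 (SE 0.35) against iKD2 Dox-. CRHR1, a receptor of the corticotropin-releasing family to which UCN3 belongs, had counts in iKD2 Dox- b alone (0.486 CPM), whereas CRHR2, the receptor that UCN3 prefers, held 1.31 to 21.5 CPM over the 7 libraries. Of 15 other maturity genes none was called. MAFA, a transcription factor of mature β-cells, ranged from 0 to 38.1 CPM and IAPP, the amyloid peptide co-secreted with insulin, from 5.64 to 29.3 CPM, both with overlap between all groups.

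**Figure D4:**
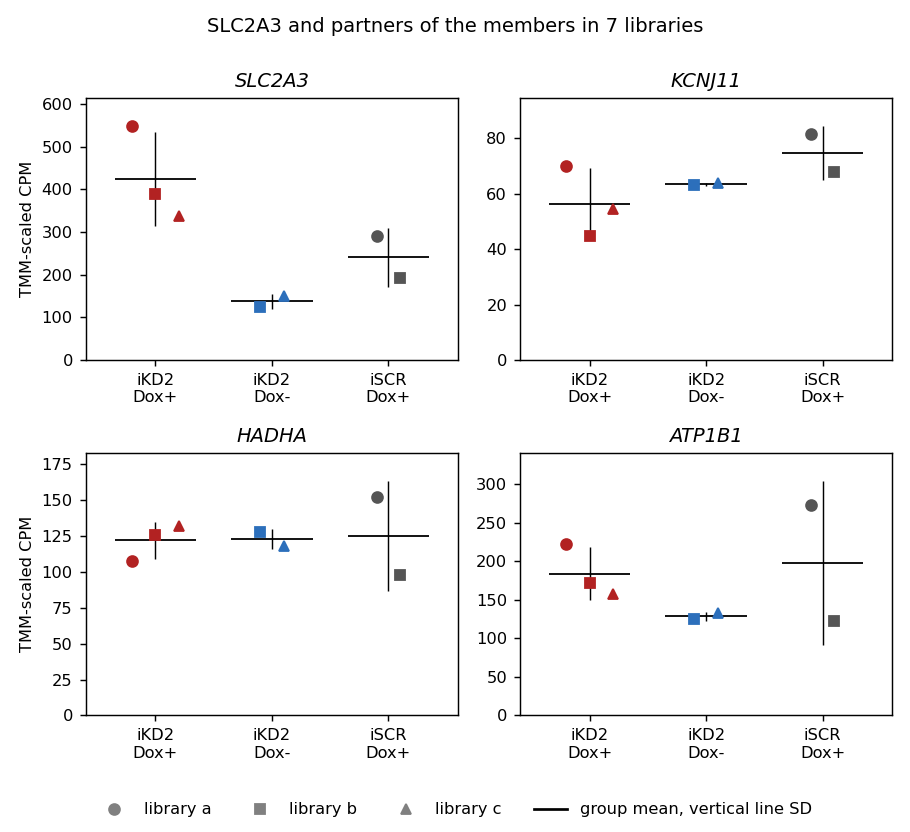
Levels of SLC2A3 and the partners KCNJ11, HADHA and ATP1B1 in each library, as TMM-scaled CPM on axes that start at 0; marker shape gives the library letter, horizontal lines the group mean and vertical lines the SD. SLC2A3 lay above all 4 controls in the 3 iKD2 Dox+ libraries, as did SLC2A10, PFKL and SLC30A6 (not shown). HADHA had nearly equal means in the 3 groups (122, 123 and 125 CPM).

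Across the 7 libraries the members did not vary as 1 block. As a measure of likeness over log2(CPM + 1), with 3 groups and differing depths behind the points, Pearson's r was lowest between SLC2A1 and UCN3 (-0.881, Spearman's rho -0.750), SLC30A8 (-0.838, rho -0.893) and G6PC2 (-0.829, rho -0.631). Without the 2 libraries farthest from the median of SLC2A1 these were -0.311, -0.745 and -0.895, so the size of the negative r with UCN3 depended on those libraries. UCN3 and G6PC2 stood at 0.734 (rho 0.667) and HADH and ATP1B2 at 0.571 (rho 0.857), which became 0.173 and 0.958 without the 2 farthest libraries. Among 11745 genes with a mean of at least 10 CPM, the patterns most like the members' were COL7A1 and ADM for SLC2A1 (r 0.988 and 0.966), B3GNT8 and ENSG00000257060 for HADH (0.982 and 0.979), TMEM39A and CMC4 for ATP1B2 (0.984 and 0.980) and MYO9B and SEMA4F for ABCC8 (0.954 and 0.948). For SLC30A8 they were CAMSAP3 and NOLC1 (0.961 and 0.942), for GLP1R VIPAS39 and CLIC4 (0.987 and 0.976), for UCN3 GRIN3A and METTL2A (0.986 and 0.982) and for G6PC2 TSPEAR-AS1 and OST4 (0.993 and 0.981). Between 9 and 73 genes reached an r of 0.9 with each member, so with 7 libraries these names are descriptions.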

How the data were processed

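Adapter-trimmed paired reads were assigned by the authors to the human transcriptome with Kallisto after fastp, summed to genes with tximport, and deposited as estimated counts per gene. The annotation release and build are not given in the sources used here. The deposited estimated counts were rounded to whole numbers. Genes were kept by edgeR's filterByExpr (22926 of 66025), TMM-scaled, and compared in edgeR 4.0.16 (R 4.3.3, robust quasi-likelihood, all 3 groups in 1 fit) with Benjamini-Hochberg adjustment over all genes tested. Levels are TMM-scaled CPM. Positions, lengths and transcripts came from GENCODE 29. Alternatives used DESeq2 1.42.0, limma 3.58.1 (voom, which the study used), other scalings and filters, a letter block, the groups compared alone and each library left out. The procedure was tested on simulated data. Members and gene lists were chosen with earlier results of these data known. Named genes were the 9 members, METTL14, fixed partners, each list's called gene or that with the lowest p in the first 2 comparisons, and the 2 genes most like each member in pattern. Which marker genes to name was chosen after seeing the data, and not all that differed between groups are named.
FAM159B, 1 of the listed genes, was not matched, and some listed genes are not reported here. Intervals of fold changes rest on the spread between libraries, the 3-count limit covers counting error only, and levels between genes were compared only per length.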

Additional observations from a re-analysis of the deposited data

How the results depend on the processing

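No member was called under any of the 16 alternatives, with a lowest adjusted p = 0.0782 (SLC30A8 between the controls, DESeq2). The 24 fold changes of the members gave 381 refitted values, of which 359 kept their direction and 22 changed sign. Whether library letters pair the samples was not settled. Deviations from the group means of same-lettered libraries correlated at -0.0341 to 0.0119 over 11749 genes. In a group of 2 libraries the deviations mirror each other, so each r comes with its negative. For example, iKD2 Dox+ a gave -0.0383 with iKD2 Dox- b and 0.0383 with iKD2 Dox- c. Such values cannot show that pairing is present or absent. The letter as a replicate block moved GLP1R to 0.01 against iKD2 Dox- and UCN3 to -2.41 against iSCR Dox+ and -1.44 between the controls, and called 18, 15 and 8 genes in place of 9, 6 and 3. SLC2A1 against iSCR Dox+ became -0.01 with DESeq2 size factors, -0.01 with DESeq2 and -0.02 with limma. With limma G6PC2 against iKD2 Dox- became -2.04 and UCN3 against iSCR Dox+ -1.69. Leaving out 1 library gave, against iKD2 Dox-, -0.56 to 0.64 for G6PC2 (below 0 without iKD2 Dox+ b or c or iKD2 Dox- b), -0.12 to 0.20 for ABCC8 (below 0 without iKD2 Dox+ b or iKD2 Dox- c) and -0.73 to 0.50 for GLP1R (above 0 without iKD2 Dox+ b or iKD2 Dox- b). Against iSCR Dox+ it gave -0.25 to 0.18 for SLC2A1 (below 0 without iKD2 Dox+ a or iSCR Dox+ b), -0.42 to 1.20 for GLP1R (below 0 without iKD2 Dox+ a or iSCR Dox+ a) and -0.64 to 0.98 for UCN3 (below 0 without iKD2 Dox+ b), and between the controls -0.32 to 1.45 for GLP1R (below 0 without iKD2 Dox- b or iSCR Dox+ a). METTL14 ran from -0.82 to 0.31 against iKD2 Dox- (above 0 without the a or b library of iKD2 Dox+ or the b library of iKD2 Dox-) and from -0.59 to 0.21 between the controls (above 0 without iKD2 Dox- c). The causes were not tested. By the study's criterion 1 member passed against iKD2 Dox- with DESeq2 (HADH). Against iSCR Dox+ 1 member passed without a filter beyond 1 count, 1 with the replicate block and 0 with the groups compared alone. With 1 library left out 0 to 1, 0 to 1 and 0 to 2 members passed in the 3 comparisons. Against iSCR Dox+ HADH passed in 10 of 16 alternatives and ATP1B2 in 7, and between the controls SLC30A8 passed in 15. The genes called numbered 51, 66 and 32 without a filter beyond 1 count, 55, 75 and 32 at a total of at least 10 counts, 2, 3 and 1 at a mean of at least 5 CPM, 225, 824 and 495 with DESeq2 and, against iKD2 Dox-, 27 with the groups compared alone. With 1 library left out they numbered 3 to 24, 3 to 187 and 2 to 151. Median transcript length raised the level per kb of the members with several transcripts. Counts of 0 to 286 per library (G6PC2, UCN3) limit what these libraries can show. The counts under the study's criterion, the gene totals, SLC2A3, INS and METTL14 and the rescaled levels were recomputed by choice made after seeing the data.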
